A study of Homo sapiens with 18 samples.

Results

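The genes described here are 10 regulators of apoptosis of the BCL2 family, *BCL2*, *BCL2L1*, *MCL1*, *BCL2A1*, *BCL2L11*, *BAX*, *BAK1*, *BBC3*, *PMAIP1* and *BID*, of 26941 genes in the count tables. They were taken by symbol, and each gene was read from the RefSeq transcript that gathered the most counts in all 18 samples together. All 10 were listed in the tables. Of these, 9 passed the filter on low counts in every cell line, and *BCL2A1*, with 7 counts in the 18 samples together, did not.

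RNA was sequenced from REH, 697 and RCH-ACV, 3 established lines of B-cell acute lymphoblastic leukemia (B-ALL). REH represents the ETV6-RUNX1 subtype, and 697 and RCH-ACV are of another subtype. In each line 3 samples were nucleofected with siRNA against *SOX11*, which encodes a SoxC transcription factor, and 3 with a non-specific control siRNA, both at 300 nM, and RNA was collected 48 h later. The study calls the 3 samples of a group biological replicates. Every sample had been nucleofected, controls included. ETV6-RUNX1 is represented by a single line, so an effect of the subtype and one of the line cannot be told apart.

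BCL2 family proteins set whether the outer membrane of the mitochondria stays closed. The anti-apoptotic members BCL2, BCL-XL (from *BCL2L1*), MCL1 and BFL1 (from *BCL2A1*) bind and restrain the effectors BAX and BAK (from *BAK1*), which otherwise form pores, release cytochrome c and start the caspase cascade. BH3-only members, here BIM (from *BCL2L11*), PUMA (from *BBC3*), NOXA (from *PMAIP1*) and BID, sense stress and either occupy the anti-apoptotic proteins or activate the effectors. B-cell precursors rely on this balance for survival, and the anti-apoptotic proteins are drug targets in leukemia.

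The total count per sample lay between 7039594 and 16592492. Of 9 markers of B-cell precursors, all reached at least 1 CPM (the count scaled to the size of the library) in the control samples of 697 and RCH-ACV and 8 did so in REH, where *VPREB1* was near 0. None of 5 T-cell or 3 erythroid markers did, and of 6 myeloid markers 1 did in each line (*MPO* at 13.5 CPM in REH, *CSF1R* at 2.90 CPM in 697 and 28.3 CPM in RCH-ACV). The samples are of established lines, and a link of *MPO* or *CSF1R* to the members' levels was not tested. *SOX11* RNA itself was lower with its siRNA in every line. In REH the control samples held 96.3 ± 2.92 CPM, against 54.1 ± 6.89 CPM after *SOX11* siRNA (mean ± SD, n = 3). The values were 59.6 ± 0.280 against 31.7 ± 0.846 CPM for 697, and 131 ± 6.07 against 82.3 ± 4.06 CPM for RCH-ACV. The log2 fold changes were -0.83, -0.91 and -0.67 (adjusted p = 1.45e-08, 0.000221 and 2.46e-06, edgeR quasi-likelihood test), which left the larger part of the transcript counts in each line. The study itself reports a deeper decrease in these lines, by RT-qPCR for the RNA and by Western blot for the protein.

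With control siRNA, the transcripts at the top of the family were those of *BAX* and *MCL1* in each line, and *BBC3* and *BCL2A1* were at the bottom. To compare genes with each other, the CPM was divided by the exon length of the MANE Select transcript in kilobases, which gives RPKM. In REH the order was led by *BAX* at 90.0 ± 6.50 RPKM, followed by *MCL1* at 69.1 ± 0.651 RPKM and then by *BCL2* at 44.8 ± 1.77 RPKM and *PMAIP1* at 41.7 ± 2.04 RPKM, and the samples of the last 2 overlapped. *BCL2L1* followed at 33.7 ± 0.475 RPKM and *BID* at 17.7 ± 1.31 RPKM. *BAK1* at 10.8 ± 0.763 RPKM and *BCL2L11* at 10.4 ± 0.0336 RPKM overlapped, and *BBC3* stood at 2.21 ± 0.225 RPKM.

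In 697 *MCL1* led at 71.8 ± 1.54 RPKM, above *BAX* at 60.0 ± 2.27 RPKM, without overlap. *BCL2L11* ranked above *BAK1* in this line alone, at 19.5 ± 0.182 against 8.46 ± 0.346 RPKM without overlap, whereas the samples of this pair overlapped in the other lines. In RCH-ACV *MCL1* at 92.5 ± 3.02 RPKM and *BAX* at 87.0 ± 3.30 RPKM overlapped. *BCL2* at 26.8 ± 0.286 RPKM ranked lower there, below *BCL2L1* at 28.8 ± 1.13 RPKM without overlap, while in REH and 697 *BCL2* stood above *BCL2L1*. The length used need not be that of the transcript counted, and the 9 transcript rows of *BAX* held totals from 6525 to 10535 counts, so the place of *BAX* next to *MCL1* rests on that choice.

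**Figure D1:**
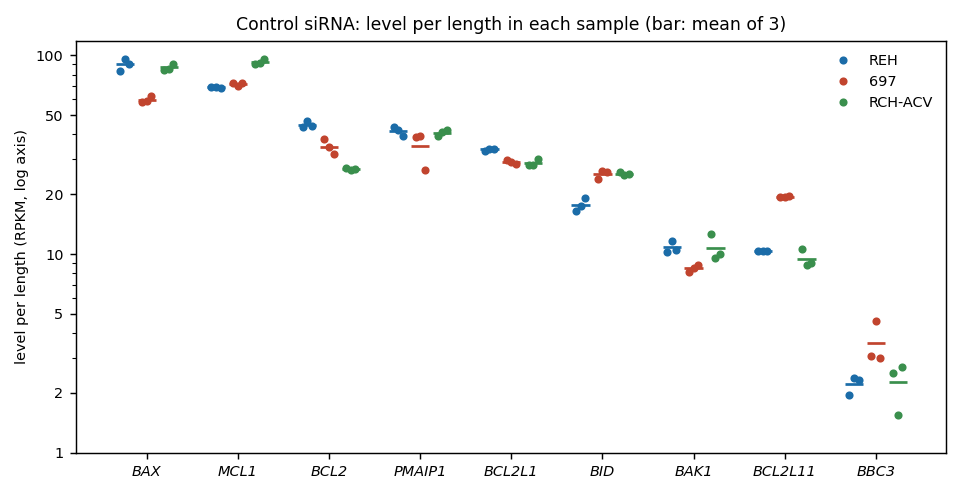
Level per length (RPKM, logarithmic axis) of 9 BCL2 family genes in the 9 control siRNA samples, ordered by the mean in REH, with a point for each sample and a bar for the mean of 3. *BCL2L11* in 697, at 19.5 RPKM, stands apart from the other lines, and *BCL2* steps down from REH to 697 to RCH-ACV; *BCL2A1* is not drawn because most of its samples were at 0.

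*BCL2A1* (NM_001114735, chr15:80253234-80263538, hg19, minus strand) had reads in 4 of 18 samples and at most 3 counts in a sample. A count of 3 corresponded to 0.181 to 0.426 CPM, depending on the depth, and its 697 samples were all at 0. No fold change was computed for it, and expression at or below this floor was not detectable.

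With control siRNA, 697 differed from both other lines in the level of most members, as the lines did over all genes. Of the 9 members tested, 8 were called between REH and 697 (5 higher in REH, 3 lower), against 75.6% of all genes. Between REH and RCH-ACV 4 were called (2 higher, 2 lower), against 73.5%, and between RCH-ACV and 697 7 were called (4 higher in RCH-ACV, 3 lower), against 63.7%. The groups did not overlap for 8, 4 and 6 members, against 76.1%, 77.1% and 66.0% of all genes. The median absolute log2 difference of the members was 0.37 between REH and 697, 0.13 between REH and RCH-ACV and 0.37 between RCH-ACV and 697, against 0.57, 0.48 and 0.37 over all genes. The members' shares called, 88.9%, 44.4% and 77.8%, lay above the share of all genes in both comparisons with 697 and below it between REH and RCH-ACV, and with 9 genes nothing particular to the family is read from them. A call is an adjusted p under 0.05 in the quasi-likelihood test of edgeR over the 18 samples. RNA came from whole cultures, so a lower level in every cell and fewer cells with the transcript cannot be told apart.

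Among the anti-apoptotic members, *BCL2* (NM_000633, chr18:60790579-60987361, hg19, minus strand) was highest in REH and lowest in RCH-ACV. Its control samples held 298, 322 and 304 CPM in REH, 262, 237 and 218 CPM in 697 and 186, 182 and 185 CPM in RCH-ACV. No samples of different lines overlapped. The level in REH was above that in 697 by 0.37 ± 0.068 on the log2 scale (SE, adjusted p = 3.06e-05) and above that in RCH-ACV by 0.74 ± 0.069 (adjusted p = 4.02e-10), and RCH-ACV was below 697 with a log2 difference of -0.38 ± 0.070 (adjusted p = 4.60e-05).

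*MCL1* (NM_021960, chr1:150533371-150552214, hg19, minus strand), whose short-lived protein is marked for degradation by several ubiquitin ligases, was highest in the line where *BCL2* was lowest. Its control samples held 274, 275 and 270 CPM in REH, 286, 277 and 288 CPM in 697 and 356, 362 and 379 CPM in RCH-ACV. The RCH-ACV samples all lay above those of the other lines. The log2 difference was 0.37 ± 0.043 between RCH-ACV and 697 (adjusted p = 4.29e-08) and -0.42 ± 0.043 between REH and RCH-ACV (adjusted p = 1.96e-09). The REH samples lay just below those of 697, but the difference of -0.06 was not called (adjusted p = 0.245), and it turned to 0.07 (adjusted p = 0.118) with library size alone as the scaling. That scaling moved the median of all genes by 0.12 in this pair of lines, and by less than 0.1 in the other comparisons.

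*BCL2L1* (NM_138578, chr20:30252255-30311792, hg19, minus strand) was higher in REH, at 85.3, 87.5 and 87.3 CPM, than in 697 at 76.3, 75.0 and 73.1 CPM or in RCH-ACV at 72.5, 72.5 and 77.5 CPM. The log2 differences were 0.21 ± 0.053 against 697 (adjusted p = 0.000792) and 0.22 ± 0.052 against RCH-ACV (adjusted p = 0.000443). Between RCH-ACV and 697 the difference was not called, and its 95% interval ran from -8.24% to 7.23%.

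The effectors were lower in 697 than in both other lines. *BAX* (NM_001291428, chr19:49458072-49465055, hg19, plus strand) held 66.3, 76.6 and 71.7 CPM in REH, 46.3, 47.0 and 49.7 CPM in 697 and 67.3, 68.0 and 72.2 CPM in RCH-ACV. The log2 differences from 697 were 0.59 ± 0.068 in REH (adjusted p = 1.91e-08) and 0.54 ± 0.069 in RCH-ACV (adjusted p = 2.05e-07), and that between REH and RCH-ACV was not called (95% interval -5.48% to 13.5%). *BAK1* (NM_001188, chr6:33540324-33548070, hg19, minus strand) held 23.5 ± 1.66, 18.4 ± 0.751 and 23.2 ± 3.57 CPM in REH, 697 and RCH-ACV. It was 0.36 ± 0.107 higher in REH than in 697 (adjusted p = 0.00358) and 0.35 ± 0.110 higher in RCH-ACV than in 697 (adjusted p = 0.00809). The latter call was lost without control replicate 1 of RCH-ACV, at 27.3 CPM the highest sample (log2 difference 0.21, adjusted p = 0.114).

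*BCL2L11*, which encodes BIM and lies on chr2:111876955-111926021 (NM_138622, hg19, plus strand), showed the widest range of the members. Its control samples held 98.9, 98.7 and 100.4 CPM in 697, against 52.7, 53.0 and 52.8 CPM in REH and 53.8, 44.9 and 45.9 CPM in RCH-ACV. Every 697 sample was far above every sample of the other lines. The level in REH was 0.533 times that in 697 (95% interval of the change -51.3% to -41.8%, adjusted p = 7.64e-13), and in RCH-ACV it was 0.487 times that in 697 (-55.6% to -46.7%, adjusted p = 2.00e-13). REH and RCH-ACV differed by 0.13 ± 0.066 on the log2 scale (adjusted p = 0.0806). That difference was called without control replicate 1 of RCH-ACV (0.22, adjusted p = 0.00628) and with library size alone as the scaling (0.19, adjusted p = 0.0135).

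*BID* (NM_001196, chr22:18216904-18257536, hg19, minus strand), which caspase-8 cleaves to carry a death receptor signal to the mitochondria, was lowest in REH. Its control samples held 36.0, 38.1 and 41.7 CPM there, 51.9, 56.8 and 56.3 CPM in 697 and 56.5, 54.3 and 54.8 CPM in RCH-ACV. REH lay below both without overlap, with log2 differences of -0.52 ± 0.086 from 697 (adjusted p = 7.28e-06) and -0.52 ± 0.085 from RCH-ACV (adjusted p = 5.44e-06). RCH-ACV and 697 were not called against each other, with a 95% interval from -11.0% to 13.4%.

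*BBC3* and *PMAIP1*, which are BH3-only genes that p53 is known to activate, were less clear. *BBC3* (NM_001127240, chr19:47724079-47736023, hg19, minus strand) rested on 22 to 58 counts per control sample. It was higher in 697, at 6.57 ± 1.69 CPM, than in REH at 4.08 ± 0.415 CPM (log2 difference -0.67 ± 0.238, adjusted p = 0.0138) and in RCH-ACV at 4.18 ± 1.16 CPM (-0.62 ± 0.246, adjusted p = 0.0302). Without control replicate 2 of 697, at 8.52 CPM, both calls were lost, with log2 differences of -0.45 (adjusted p = 0.120) and -0.41 (adjusted p = 0.193). The REH call was also lost without control replicate 1 of REH (-0.58, adjusted p = 0.0514), and the RCH-ACV call without control replicate 2 of RCH-ACV (-0.43, adjusted p = 0.151) and with library size alone (-0.56, adjusted p = 0.0577).

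*PMAIP1* (NM_021127, chr18:57567228-57571537, hg19, plus strand) held 82.5, 79.9 and 74.9 CPM in REH, 73.8, 75.0 and 50.5 CPM in 697 and 74.6, 77.8 and 80.2 CPM in RCH-ACV. Control replicate 3 of 697 was low, and the samples of 697 overlapped those of both other lines. With it *PMAIP1* was called lower in 697 than in REH (log2 difference 0.26 ± 0.094, adjusted p = 0.0171) and than in RCH-ACV (0.22 ± 0.096, adjusted p = 0.0463). Without that sample the differences were 0.09 (adjusted p = 0.265) and 0.06 (adjusted p = 0.525). The call against RCH-ACV was lost in 12 of the 18 fits that left out 1 library and with the control samples fitted alone (adjusted p = 0.0606), and that against REH in 2 of 18, the other being without control replicate 1 of REH (0.22, adjusted p = 0.0622).

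Count ratios within a library do not depend on the scaling between libraries. The ratio of *BCL2* to *MCL1* counts was 1.09, 1.17 and 1.13 in the control samples of REH, 0.917, 0.857 and 0.757 in those of 697, and 0.523, 0.503 and 0.488 in those of RCH-ACV. No samples of different lines overlapped, and the ratio in REH was 2.24 times that in RCH-ACV. The ratio of *BCL2L11* to *BCL2* was lowest in REH, at 0.172 ± 0.00613, and stood at 0.418 ± 0.0414 in 697 and 0.261 ± 0.0244 in RCH-ACV, again without overlap. The ratio of *BCL2L11* to *MCL1* had another order, with 0.350 ± 0.00568 in 697, 0.194 ± 0.00158 in REH and 0.132 ± 0.0168 in RCH-ACV. *BAX* to *BCL2* was highest in RCH-ACV, at 0.375 ± 0.0143, while REH at 0.232 ± 0.00857 and 697 at 0.201 ± 0.0257 overlapped. For the pairs without overlap the two-sided exact permutation test gave p = 0.1, the smallest it can give for 3 samples against 3 (0.24 after Benjamini-Hochberg adjustment over 48 tests), so no ratio could pass the threshold. These ratios compare RNA counts uncorrected for length, and the proteins were not measured here.

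**Figure D2:**
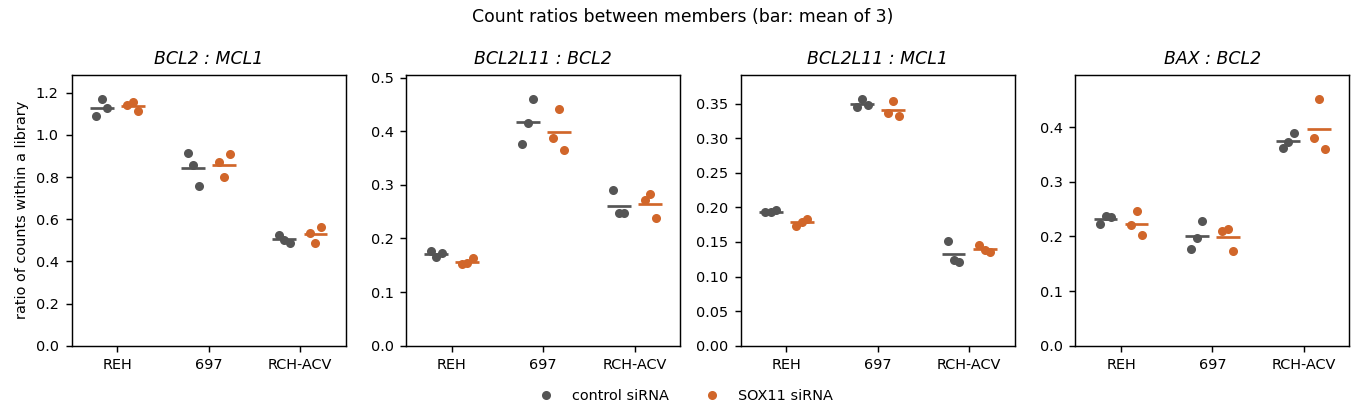
Ratio of counts between 2 members within each library (vertical axis, no unit, from 0), with a point for each of the 18 samples and a bar for the mean of 3, in gray for control siRNA and orange for *SOX11* siRNA. The *BCL2* to *MCL1* ratio separates the 3 lines, and the ratio of *BCL2L11* to *BCL2* is highest in 697.

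*MCL1* and *BCL2L1* have transcript forms of unlike function, of which the long ones encode the anti-apoptotic proteins. For *MCL1* the row of NM_182763, which lacks an exon of NM_021960, held all but 7.52% ± 0.129 of the reads of the full row in the REH controls, all but 6.33% ± 0.145 in those of 697 and all but 7.23% ± 0.467 in those of RCH-ACV. The 697 samples lay below those of both other lines (exact permutation p = 0.1, the smallest possible). For *BCL2L1* the row of NM_001191 lacked 8.54% ± 0.440, 9.41% ± 1.49 and 9.59% ± 0.783 of the reads of NM_138578 in REH, 697 and RCH-ACV, and all lines overlapped. Transcript rows count the same reads where they share exons, so these shares describe reads on the differing part and not the abundance of a form. For *BCL2* the row of NM_000657 held 11.8% to 12.2% of the counts of NM_000633 in the control samples of REH and 11.8% to 12.8% in those of 697, and RCH-ACV, at 13.8% to 14.7%, lay above both without overlap (exact permutation p = 0.1, the smallest possible). With *SOX11* siRNA the samples overlapped the controls in every line for the 3 genes.

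Since the siRNA targeted a SOX factor, the promoters of 9 of the 10 members were searched for the core words of SOX binding, ACAAAG and ACAATG, on both strands. The windows ran from 250 bases before to 50 bases after each start site (RefSeq, GRCh38.p14), and 14 windows belonged to these 9 members. The promoter of *MCL1* was not analysed here. A word was found in 4 windows of 3 members, *BCL2L1*, *BBC3* and *BID*, and 24.5% of 35116 windows of this length over all genes held one. The 30 bases around each match are shown, read 5′ to 3′ on the strand of the gene, with the word or its reverse complement in capitals. A match is a description and not a binding site.
BCL2L1 (chr20:31724184-31724213, minus strand, word 245 bases before the start site): tccagACAAAGtgcttaaccacaaggcgat
BBC3 (chr19:47232632-47232661, minus strand, word 19 bases after the start site): gggcaggaagtaACAATGagaaactgaaaa
BID (chr22:17774089-17774118, minus strand, word 64 or 123 bases before 2 start sites): aggcggggaaggCTTTGTtgtgtcctctcc

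None of the 9 members tested was called for *SOX11* siRNA in any line. Over all genes 4.65% were called in REH, 0.559% in 697 and 7.51% in RCH-ACV, each line being fitted by itself with edgeR. An unadjusted p under 0.05 was reached by 2 members in REH (*BCL2L11* and *PMAIP1*), by 0 in 697 and by 1 (*MCL1*) in RCH-ACV. Among all genes it was reached by 2155 (REH, 12787 tested), 1003 (697, 12169 tested) and 2911 (RCH-ACV, 12963 tested). With 9 members, nothing particular to the family is read from these counts. DESeq2 also called 0 members in each line. The effect common to the 3 lines, with cell line as a covariate, was called for 0 of 9 members, against 8.14% of all genes, with 2 members at an unadjusted p under 0.05 and 0 called by DESeq2. A difference between lines in the effect was called for 0 of 9, against 0.734% of all genes, with 0 at an unadjusted p under 0.05 and 0 by DESeq2. Over all genes 2972 of 14026 reached that unadjusted p for the common effect and 1416 of 14026 for the difference. The groups did not overlap for 2 members in REH, for *BCL2L11* in 697 and for 2 members in RCH-ACV, and over all genes this held for 21.4%, 13.1% and 25.9%.

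The estimated changes were small. They lay between -11.5% and 9.78% in REH, between -9.56% and 1.57% in 697 and between -8.41% and 8.17% in RCH-ACV. For the 8 members other than *BBC3* the 95% intervals stayed between -21.8% and 20.7% in REH, between -21.2% and 25.3% in 697 and between -21.5% and 20.3% in RCH-ACV, so changes beyond these limits are outside the intervals. For *BBC3*, with few counts, they reached from -41.5% to 44.4%. The common effect of the siRNA had intervals between -11.1% and 9.48% for the 8 members. The median log2 fold change of the members was -0.01 in REH, -0.05 in 697 and -0.04 in RCH-ACV, against -0.0022, -0.0038 and 0.0049 over all genes.

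**Figure D3:**
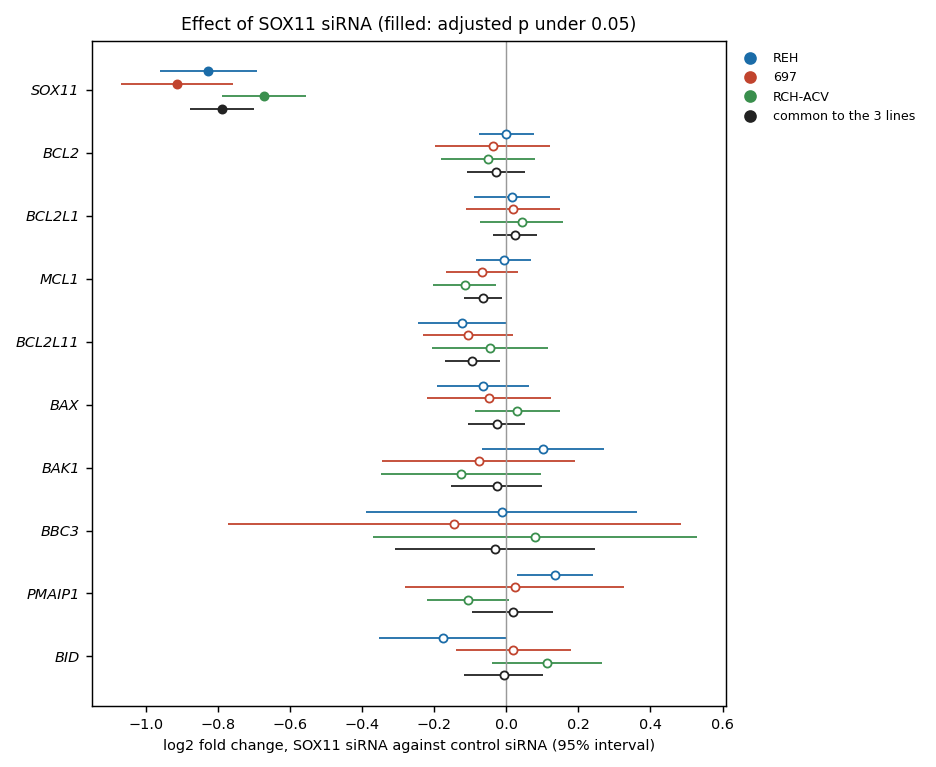
Log2 fold change of *SOX11* siRNA against control siRNA (horizontal axis) for *SOX11* and 9 BCL2 family genes, by cell line and for the effect common to the lines. Points are edgeR estimates, lines are 95% intervals, and filled points have an adjusted p under 0.05, which holds for *SOX11* alone, at -0.67 to -0.91 in the single lines.

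*BCL2* showed the siRNA groups on top of each other in each line. With *SOX11* siRNA it held 311, 298 and 313 CPM in REH (log2 fold change -8.7e-05 ± 0.037), 234, 213 and 253 CPM in 697 (-0.04 ± 0.072) and 182, 158 and 196 CPM in RCH-ACV (-0.05 ± 0.062). *BCL2L1*, with a SOX word at the far end of its promoter window, stood at 87.4 ± 4.77, 75.8 ± 1.36 and 76.5 ± 0.976 CPM with *SOX11* siRNA in REH, 697 and RCH-ACV, with log2 fold changes of 0.02, 0.02 and 0.04. Both genes had adjusted p-values from 0.677 to 1.00 over the lines.

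*MCL1* with *SOX11* siRNA held 273, 257 and 280 CPM in REH, 269, 266 and 279 CPM in 697 and 342, 324 and 347 CPM in RCH-ACV. In RCH-ACV all 3 samples lay below the 3 controls. The log2 fold change there was -0.12 ± 0.042 (unadjusted p = 0.0131, adjusted p = 0.106), and it was -0.07 ± 0.045 in 697 and -0.01 ± 0.037 in REH. The common effect was -0.07 ± 0.026 (unadjusted p = 0.0179, adjusted p = 0.127).

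*BCL2L11* was lower with *SOX11* siRNA in the mean of each line, without a call in any. It held 47.3, 46.0 and 51.3 CPM in REH, 90.5, 93.9 and 92.5 CPM in 697 and 49.6, 44.9 and 46.8 CPM in RCH-ACV. The siRNA samples lay below all controls in REH and 697 and overlapped them in RCH-ACV. The log2 fold changes were -0.12 ± 0.059 (unadjusted p = 0.0474), -0.11 ± 0.056 (unadjusted p = 0.0836) and -0.04 ± 0.076 (unadjusted p = 0.567), and the common effect was -0.09 ± 0.037 (unadjusted p = 0.0166, adjusted p = 0.122). Within a library, the ratio of *BCL2L11* to *BCL2* was 0.157 ± 0.00621 with *SOX11* siRNA against 0.172 ± 0.00613 with control siRNA in REH, without overlap (exact permutation p = 0.1, the smallest possible), and overlapped in 697 and RCH-ACV.

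*PMAIP1* and *BID* had estimates of opposite sign in REH and RCH-ACV. *PMAIP1* with *SOX11* siRNA held 88.4, 84.3 and 87.4 CPM in REH, above all controls, and 72.7, 71.4 and 72.0 CPM in RCH-ACV, below all controls. The log2 fold changes were 0.13 ± 0.051 (unadjusted p = 0.0141, adjusted p = 0.152) and -0.11 ± 0.054 (unadjusted p = 0.0674, adjusted p = 0.261). The difference between lines was not called (unadjusted p = 0.203, adjusted p = 0.745). In 697 the samples overlapped, at 70.4, 73.2 and 59.1 CPM.

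*BID* with *SOX11* siRNA held 39.4, 31.3 and 30.2 CPM in REH, 56.3, 56.1 and 55.1 CPM in 697 and 64.5, 61.5 and 52.9 CPM in RCH-ACV, overlapping the controls in each line. The log2 fold changes were -0.18 ± 0.086, 0.02 ± 0.072 and 0.11 ± 0.072, with an unadjusted p of 0.0607 and an adjusted p of 0.527 for the difference between lines. *BID* was called in REH only without *SOX11* siRNA replicate 1 (-0.32, adjusted p = 0.0474). Without *SOX11* siRNA replicate 3 of RCH-ACV, *BCL2* (-0.13, adjusted p = 0.0479), *MCL1* (-0.14, adjusted p = 0.00768) and *BID* (0.18, adjusted p = 0.0326) were called in that line, where the number of all genes called then rose from 973 to 2479.

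The remaining members gave no call. *BAX* held 68.5 ± 4.82, 46.2 ± 2.74 and 70.5 ± 1.13 CPM with *SOX11* siRNA in REH, 697 and RCH-ACV, with log2 fold changes between -0.07 and 0.03. *BAK1* held 25.3 ± 0.643, 17.4 ± 2.24 and 21.4 ± 1.53 CPM, with log2 fold changes between -0.13 and 0.10. *BBC3* held 4.02 ± 0.202, 5.95 ± 2.23 and 4.57 ± 0.851 CPM, with log2 fold changes between -0.14 and 0.08. The samples of both siRNA groups overlapped for these 3 genes in every line.

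**Figure D4:**
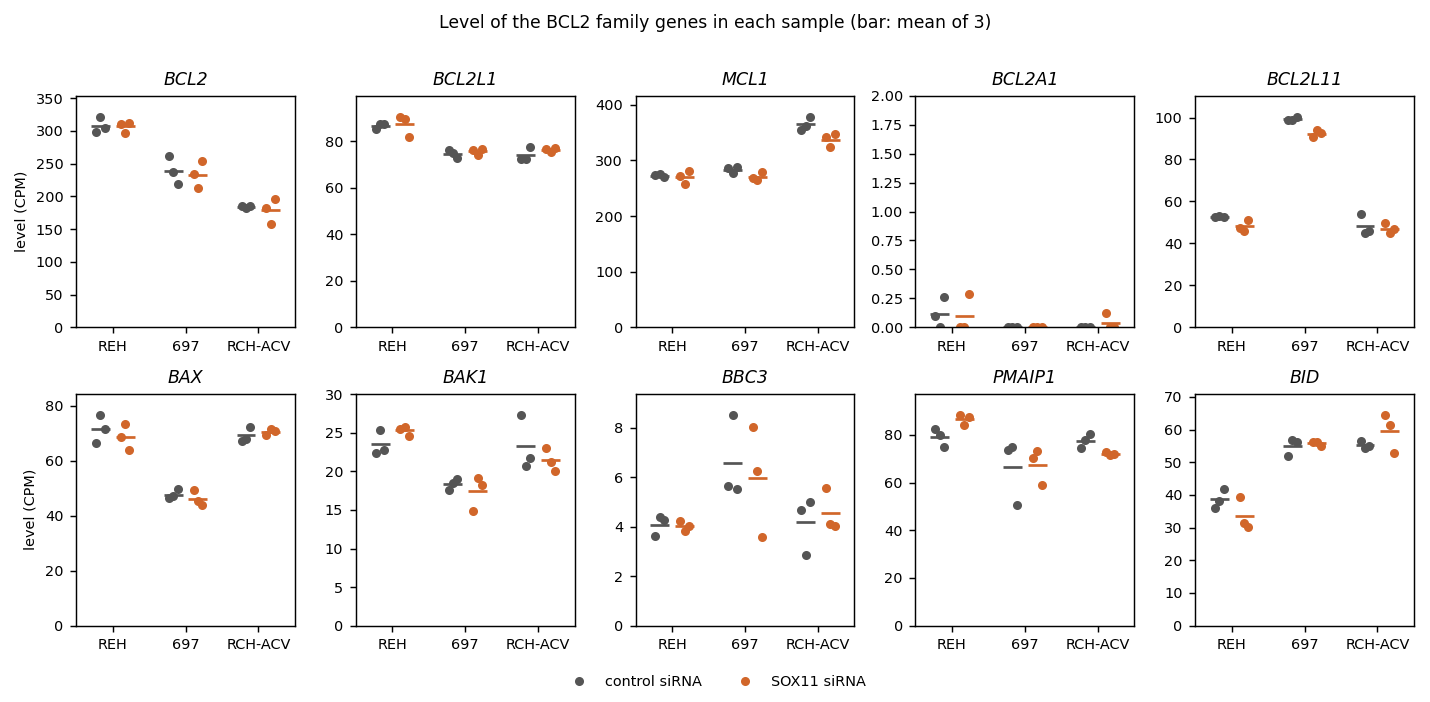
Level (CPM, linear axis from 0, with a scale of its own for each gene) of the 10 BCL2 family genes in each of the 18 samples, in gray for control siRNA and orange for *SOX11* siRNA, with a bar for the mean of 3. The step of *BCL2L11* between lines, at 98.7 to 100.4 CPM in the 697 controls and 44.9 to 53.8 CPM in those of the other lines, is larger than its gaps between the siRNA groups; *BCL2A1* is at or near 0 throughout.

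The wider pathway was read from a list of 39 genes with other BCL2 family members, caspases and their inhibitors, the death receptor arm that leads to BID, and regulators of the members. With *SOX11* siRNA, 2 of 32 tested were called in REH (1 higher, 1 lower), 0 of 31 in 697 and 5 of 32 in RCH-ACV (1 higher, 4 lower). These are 6.25%, 0% and 15.6% of the list, against 4.65%, 0.559% and 7.51% of all genes. In 697 there were 4 at an unadjusted p under 0.05, against 1003 of 12169 over all genes, and DESeq2 called 1, *FBXW7*. In REH DESeq2 called 0. The common effect was called for 7 of 33 (2 higher, 5 lower), or 21.2% against 8.14% of all genes. The list was chosen with earlier results of these data known, so nothing particular to it is read from these shares. A difference between lines was called for 0 of 33, against 0.734% of all genes, and for 0 by DESeq2. An unadjusted p under 0.05 for it was reached by 2 of the list, against 1416 of 14026 over all genes. Of the other BCL2 family members 0 of 6 were called in each line, and DESeq2 called none of them in any line. At an unadjusted p under 0.05 there were 0, 0 and 1 of these 6 in REH, 697 and RCH-ACV. The counts over all genes were 2155 (REH, 12787 tested), 1003 (697, 12169 tested) and 2911 (RCH-ACV, 12963 tested). With 6 genes, nothing particular to them is read from these counts.

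*TNFRSF10B*, the death receptor DR5 that binds TRAIL, was called in 2 lines. It held 45.0, 43.6 and 45.2 CPM with control and 37.4, 36.7 and 35.9 CPM with *SOX11* siRNA in REH, and 64.8, 69.3 and 66.5 against 54.1, 54.8 and 59.1 CPM in RCH-ACV. All siRNA samples lay below the controls in both lines. The log2 fold changes were -0.27 ± 0.064 (adjusted p = 0.0108) and -0.26 ± 0.060 (adjusted p = 0.0155). In 697 it was too low to be tested by itself, and the common effect was -0.27 ± 0.048 (adjusted p = 0.00043). The RCH-ACV call was lost in 5 of 6 fits that left out 1 library of that line (adjusted p from 0.0518 to 0.0914, log2 fold change -0.29 to -0.23), and the REH call without control replicate 3 (adjusted p = 0.0548) and with DESeq2 (adjusted p = 0.0748).

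*FBXW7*, the part of a ubiquitin ligase that recognizes MCL1 among other proteins, was called in RCH-ACV, where *MCL1* RNA itself was not. It held 155, 160 and 160 CPM with control and 117, 120 and 140.2 CPM with *SOX11* siRNA there (log2 fold change -0.33 ± 0.059, adjusted p = 0.00204). In 697 the siRNA samples, at 197, 207 and 219 CPM, also lay below the controls at 274, 241 and 243 CPM (-0.28 ± 0.059, adjusted p = 0.0822), and DESeq2 called that difference (adjusted p = 0.0340). In REH the log2 fold change was -0.12 ± 0.063 (adjusted p = 0.318). The common effect was -0.26 ± 0.041 (adjusted p = 0.000119), and the difference between lines was not called (adjusted p = 0.694).

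*MARCHF5*, a ubiquitin ligase of the mitochondrial outer membrane, fell in RCH-ACV by 0.24 ± 0.055 on the log2 scale (adjusted p = 0.0133). *VDAC1*, a channel of the outer membrane, rose there by 0.17 ± 0.041 (adjusted p = 0.0176). Each of these calls was lost in 4 of 6 fits that left out 1 library of that line.

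*VDAC1*, *FAS* and *FOXO3* were named after their values were seen. The common effect was called for *VDAC1* (0.12 ± 0.027, adjusted p = 0.00514), *FAS* and *FOXO3*. *FAS*, a death receptor, was low, at 1.52 ± 0.478 against 0.890 ± 0.246 CPM in REH, 5.51 ± 0.591 against 3.40 ± 0.832 CPM in 697 and 2.59 ± 0.374 against 1.88 ± 0.786 CPM in RCH-ACV (control against *SOX11* siRNA). Its common log2 fold change was -0.64 ± 0.154 (adjusted p = 0.00829), from 5 to 46 counts per sample. *FOXO3*, a transcription factor known to activate *BCL2L11* and *BBC3*, had a common log2 fold change of -0.26 ± 0.066 (adjusted p = 0.0102), with -0.20, -0.49 and -0.19 in REH, 697 and RCH-ACV.

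**Figure D5:**
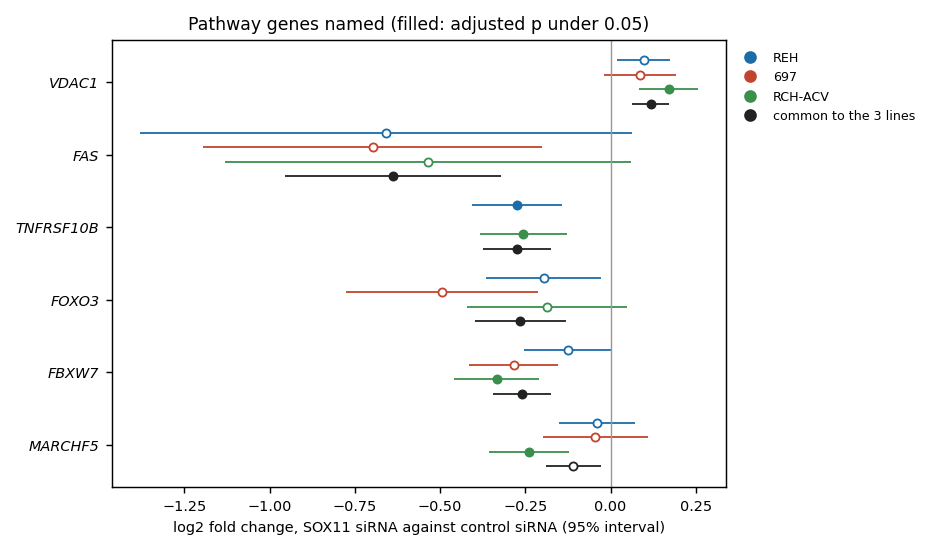
Log2 fold change of *SOX11* siRNA against control siRNA (horizontal axis) for 6 genes of the pathway list called in a line or for the common effect, by cell line and for the effect common to the lines. Points are edgeR estimates, lines are 95% intervals, and filled points have an adjusted p under 0.05; *TNFRSF10B*, at -0.27 in REH and -0.26 in RCH-ACV, has no 697 point because it was too low to be tested there.

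Between the lines with control siRNA, 24 of 33 pathway genes tested were called for REH against 697 (13 higher, 11 lower), 19 for REH against RCH-ACV (11 higher, 8 lower) and 19 for RCH-ACV against 697 (6 higher, 13 lower). These are 72.7%, 57.6% and 57.6% of the list, below the 75.6%, 73.5% and 63.7% of all genes. The shares are descriptions of a list of few genes and nothing particular to it is read from them. *TNFRSF10B* was nearly absent from 697, with 10 counts in its 3 control samples against 1381 in REH and 1674 in RCH-ACV. *TNFRSF10A*, the other TRAIL receptor able to signal death, was highest in 697, at 8.73 ± 0.294 CPM in 697, 2.06 ± 0.483 CPM in REH and 1.48 ± 0.364 CPM in RCH-ACV. The log2 difference from 697 was -2.10 in REH (adjusted p = 2.41e-09) and -2.55 in RCH-ACV (adjusted p = 9.78e-10).

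Other BH3-only genes of low level also differed between lines. *BIK* was detected in RCH-ACV, with 101 counts in the 3 control samples against 2 in REH and 2 in 697, a ratio per total count of 60.0 (95% exact interval 16.2 to 503) and 47.1 (12.7 to 394), both covering counting error only. *HRK*, read from a non-coding RefSeq record, had 30 counts in REH and 30 in 697 and 0 in RCH-ACV. With a floor of 3 counts over the 3 samples set for RCH-ACV, the ratio per total count was 8.41 for REH and 10.7 for 697. The counting error of the 30 counts is not included, so these are not lower bounds. *BMF*, whose product binds the anti-apoptotic members, was at 13.7 ± 1.38 CPM in REH and 14.2 ± 0.663 CPM in RCH-ACV, against 4.09 ± 0.501 CPM in 697 (log2 difference 1.73 for REH against 697, adjusted p = 1.68e-10).

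Upstream of the members, *FBXW7* stood at 62.0 ± 4.62 CPM in REH, 253 ± 18.6 CPM in 697 and 158 ± 2.83 CPM in RCH-ACV (log2 difference -2.03 for REH against 697, adjusted p = 3.25e-19, and -1.36 for REH against RCH-ACV, adjusted p = 3.21e-15). *CASP10*, an initiator caspase of the death receptor arm, was higher in REH, at 35.5 ± 2.03 CPM, than in RCH-ACV at 16.6 ± 1.15 CPM (1.09 ± 0.090, adjusted p = 3.84e-11). *DDIT3*, which encodes the stress factor CHOP, was lowest in RCH-ACV, at 15.4 ± 1.47 CPM. It held 24.8 ± 4.95 CPM in REH and 23.0 ± 3.97 CPM in 697. The log2 difference was 0.70 ± 0.152 for REH against RCH-ACV (adjusted p = 0.000213) and -0.58 ± 0.161 for RCH-ACV against 697 (adjusted p = 0.00295).

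The genes whose pattern over the 6 groups was most like a member were looked up for the anti-apoptotic and the pro-apoptotic member of widest range. For *BCL2* they included *PPM1B* and *MBOAT2*, with root mean square differences of 0.0223 and 0.0290 between centered group means of log2 CPM, among 14025 genes. *PPM1B* held 93.1, 75.6 and 57.9 CPM in the controls of REH, 697 and RCH-ACV. For *BCL2L11* they were the non-coding RefSeq record NR_048549, *BPHL* and *NBR1*, with differences of 0.0546, 0.0631 and 0.0638. *NBR1* held 51.9, 98.6 and 52.4 CPM. With 6 groups and this many genes, likeness is a description.

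Genes that overlap the members held few counts of their own. *ADAMTSL4* and *ADAMTSL4-AS1*, which share exon bases with *MCL1*, held 58 and 36 counts over the 18 samples against 49929 for *MCL1*. *MIR4435-2HG* held 13 against 10373 for *BCL2L11*, *GGNBP1* 26 against 3616 for *BAK1*, and *MIR3191* 8 against 792 for *BBC3*. *ABALON*, on the opposite strand of *BCL2L1*, was not analysed here. The libraries were stranded, but whether the counting used the strand is not given in the sources used here.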

How the data were processed

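RNA-seq of 18 samples, 3 per cell line and siRNA, was used. Per the labels and the methods, the authors trimmed the reads, mapped them with STAR 2.5.3a (hg19), left out reads with more than 2 locations and obtained counts on RefSeq transcripts from HOMER. They deposited raw counts per transcript, without normalization, in 1 table per line. The tables were found to hold whole numbers and 0 columns of other samples. Symbols were matched for 98.0% of transcripts and 99.0% of counts, and overlapping transcripts share reads, so 1 transcript per gene was kept.

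Each line was fitted with edgeR 4.0.16 (R 4.3.3): filterByExpr by group, TMM, quasi-likelihood F-test, two-sided, Benjamini-Hochberg over all genes tested, called under 0.05. Lines, the common effect and the interaction were tested over the 18 samples. CPM used TMM factors over the 18 samples. Standard errors are the log2 fold change over the root of F, and intervals are 95%. Scripts were tested on simulated data. Replicate numbers were taken not to pair the samples. Alternatives were other scaling and filters, DESeq2 1.42.0, a replicate block, other transcript choices, other sample sets and leaving out each library. Positions and the MANE Select exon lengths behind RPKM are from the GENCODE annotation on hg19. Named pathway genes were those called in 2 or more lines, the 3 largest called per line, and the 2 largest on each side between lines, and the 3 genes nearest in pattern were taken for 2 members. The members and lists were chosen with earlier results of these data known. Count intervals cover counting error only, and ratios set against a floor do not include it. Results for some genes that these rules name are not reported here, although counts over lists include them.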

Additional observations from a re-analysis of the deposited data

How the results depend on the processing

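Of 558 values of members under other scalings, filters, tools, sample sets or transcripts, 546 kept their direction and their side of the threshold, and of 972 values with 1 library left out, 904 did. Members called for *SOX11* siRNA numbered 0 in each line under every other setting, and with 1 library left out they ranged from 0 to 1 in REH and from 0 to 3 in RCH-ACV. The cause of the changes below was not tested.

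The count of all genes called moved most. With DESeq2 it was 305 instead of 594 in REH and 563 instead of 973 in RCH-ACV, and with 1 fit over the 18 samples 228 in REH and 189 instead of 68 in 697. Without a filter on low counts it was 119 in 697 and 276 instead of 103 for the difference between lines. With every transcript kept apart, where more features are tested, it was 24315, 23526 and 20675 for REH against 697, REH against RCH-ACV and RCH-ACV against 697, 306 for the difference between lines and 2936 for the common effect. With 1 library left out it ranged from 296 to 522 in REH, 25 to 70 in 697, 386 to 2479 in RCH-ACV and 57 to 179 for the difference between lines.

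Replicate numbers are shared by the groups of a line, but same-numbered samples deviated together with correlations from -0.247 to 0.265, so the numbers were taken not to pair the samples. Samples of unlike number in 697 had correlations from -0.35 to 0.407, and a pairing under other numbers was not tested. With a replicate block, 29 genes were called in 697, 42 for the difference between lines and 744 for the common effect, and 0 members were called for the siRNA in any line.

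Signs that turned belonged to values that were not called. For *SOX11* siRNA in REH, *BCL2* was 0.0012 with RLE size factors and with DESeq2, 0.00026 without a filter and 0.00078 with the replicate block. Between lines, *MCL1* was 0.068 for REH against 697 and *BCL2L1* was 0.053 for RCH-ACV against 697 with library size alone, and for REH against RCH-ACV *BBC3* was 0.013 with library size alone and *BAK1* was -0.0025 with RLE size factors and -0.0031 with DESeq2.

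With 1 library left out, log2 fold changes of the siRNA in REH ranged from -0.096 to 0.055 for *BBC3*, -0.023 to 0.033 for *BCL2*, -0.016 to 0.068 for *BCL2L1* and -0.031 to 0.020 for *MCL1*. In 697 they ranged from -0.144 to 0.020 for *BAK1*, -0.41 to 0.131 for *BBC3*, -0.095 to 0.030 for *BCL2*, -0.024 to 0.049 for *BID* and -0.137 to 0.122 for *PMAIP1*. In RCH-ACV they ranged from -0.20 to 0.013 for *BAK1*, -0.115 to 0.225 for *BBC3*, -0.132 to 0.038 for *BCL2* and -0.090 to 0.049 for *BCL2L11*. The common effect ranged from -0.050 to 0.022 for *BAK1*, -0.101 to 0.064 for *BBC3*, -0.030 to 0.025 for *BID* and -0.026 to 0.040 for *PMAIP1*. REH against RCH-ACV ranged from -0.057 to 0.154 for *BAK1*, -0.0054 to 0.106 for *BAX* and -0.242 to 0.10 for *BBC3*, and RCH-ACV against 697 from -0.047 to 0.0025 for *BCL2L1* and -0.037 to 0.027 for *BID*. Depth limits *BBC3*, with 22 to 69 counts per sample, and *BCL2A1*, with at most 3.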
